A study of Danio rerio with 2 samples.

Results

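The genes star, cyp11a1.1, cyp17a1, fdx1, hsd11b2, hsd17b8, cyp19a1b and fkbp5 take part in the synthesis of steroid hormones, in the inactivation of cortisol or in the response to it. They were found by the gene symbol of each probe on the array, cyp11a1.1 under its older symbol cyp11a1, and all 8 had at least 1 probe. They are 8 of the 27423 genes and unnamed targets on the array, and 18 of its 43553 probes. Total RNA of whole zebrafish embryos at 72 hpf was measured in 2 groups with 1 array each. The first group was F2 embryos of the line Tg(RE:HSE:EGFP), made in the AB strain, which carries the human RUNX1-Evi-1 fusion cDNA and EGFP on either side of a bidirectional heat shock promoter. The second was wild type (WT) AB embryos with neither. Both groups received a heat shock of 1 hour at 38 °C on the first day of development. Not every F2 fish showed EGFP after heat shock, and no selection of EGFP-positive embryos before RNA extraction is described, so the Tg(RE:HSE:EGFP) RNA may include embryos without the transgene. The study's methods name embryos, while its results speak of blood cells. All 7 muscle and 5 lens markers with a probe and 6 of 8 liver markers were above background on both arrays. The muscle actin gene actc1b, for 1, was at 18.19 on the Tg(RE:HSE:EGFP) array and 17.78 on the WT array.

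Steroid synthesis begins when StAR brings cholesterol to the inner mitochondrial membrane, where the side-chain cleavage enzyme Cyp11a1 turns it into pregnenolone with electrons passed on by a ferredoxin. Cyp17a1 then opens the way to cortisol and to androgens. In fish the interrenal gland, the counterpart of the adrenal cortex, makes cortisol under the control of pituitary ACTH, and the embryo also holds cortisol laid down by the mother. Hsd11b2 oxidizes cortisol to inactive cortisone, aromatases make estrogens from androgens, and Fkbp5 is a co-chaperone that holds the glucocorticoid receptor in a state of low affinity and whose gene is itself a classic glucocorticoid target.

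The files hold 1 normalized log2 signal per probe and array. Where the methods name triplicate samples, 1 array per group was analysed here, so no spread between embryos or arrays could be had, no test was possible and no p-value is given. With each group on its own array, array and group cannot be told apart. Every difference below is the array labelled Tg(RE:HSE:EGFP), called the Tg array from here on, minus the array labelled WT, called the WT array, on the log2 scale. Its direction rests on the labels alone, and it runs opposite to the study's for the linker histone and histone deacetylase genes the study tabulates. For the linker histone gene h1-10 (h1fx in the files) both probes were lower on the Tg array, at 10.34 and 10.02 against 11.46 and 11.36 on the WT array. The dimmer of these probes holds the same pair of values as the study's entry for that gene, with the groups exchanged. The brighter probe of the deacetylase gene hdac4 was at 11.03 on the Tg array and 11.37 on the WT array. The probe described as histone deacetylase 11 was at 7.28 on the Tg array and 8.52 on the WT array. No probe of these deacetylase genes holds the pair of values the study gives. The hdac4 probes differed by -0.34 and -1.19, the dimmer one within the background on the Tg array, far less in size than the study's hdac4 change. Of the blood genes with a direction at this age in the study's qRT-PCR, gata1a and spi1 ran the same way on the arrays as labelled and mpx the other way. The erythroid factor gene gata1a was lower on the Tg array by both probes, at -0.95 and -0.29, the brighter probe of the myeloid factor gene spi1 stood at 0.46, and the brightest probe of the myeloperoxidase gene mpx at 0.75. The probes of runx1 were within the background. The labels were kept throughout. If the arrays carry each other's label, every difference here changes sign, its size stays, and which array gives a bound is exchanged.

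To set a limit of background, 178 probes for chemosensory receptors (odorant, trace amine and taste) were taken, since few cells of an embryo use these genes. The 95th percentile of their signals, 6.70 on either array, was the limit. Of all genes and targets, 16313 passed it on 1 array or more and 14577 on both. The median difference of the 16313 was -0.03, and 47.9% of them had a difference above 0. A gene was read from its brightest probe and counted when it differed by at least 2-fold, which 4.71% of the 16313 did toward higher on the Tg array and 3.52% toward lower. Of the members, 7 of 8 were above background on at least 1 array, 5 on both, and 4 were counted, 2 higher and 2 lower, against 8.24% of all genes either way. The members were named with results of these arrays known, so nothing is read from that share. The members star and cyp19a1b passed the background filter through the Tg array alone, the array on which they were brighter. As a yardstick for the precision of a probe, the differences of a gene's 2 brightest probes lay 0.18 apart in the median over the 5908 genes that have such a pair measured on both arrays, and 0.76 apart at the 95th percentile. This yardstick holds no spread between embryos.

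**Figure D1:**
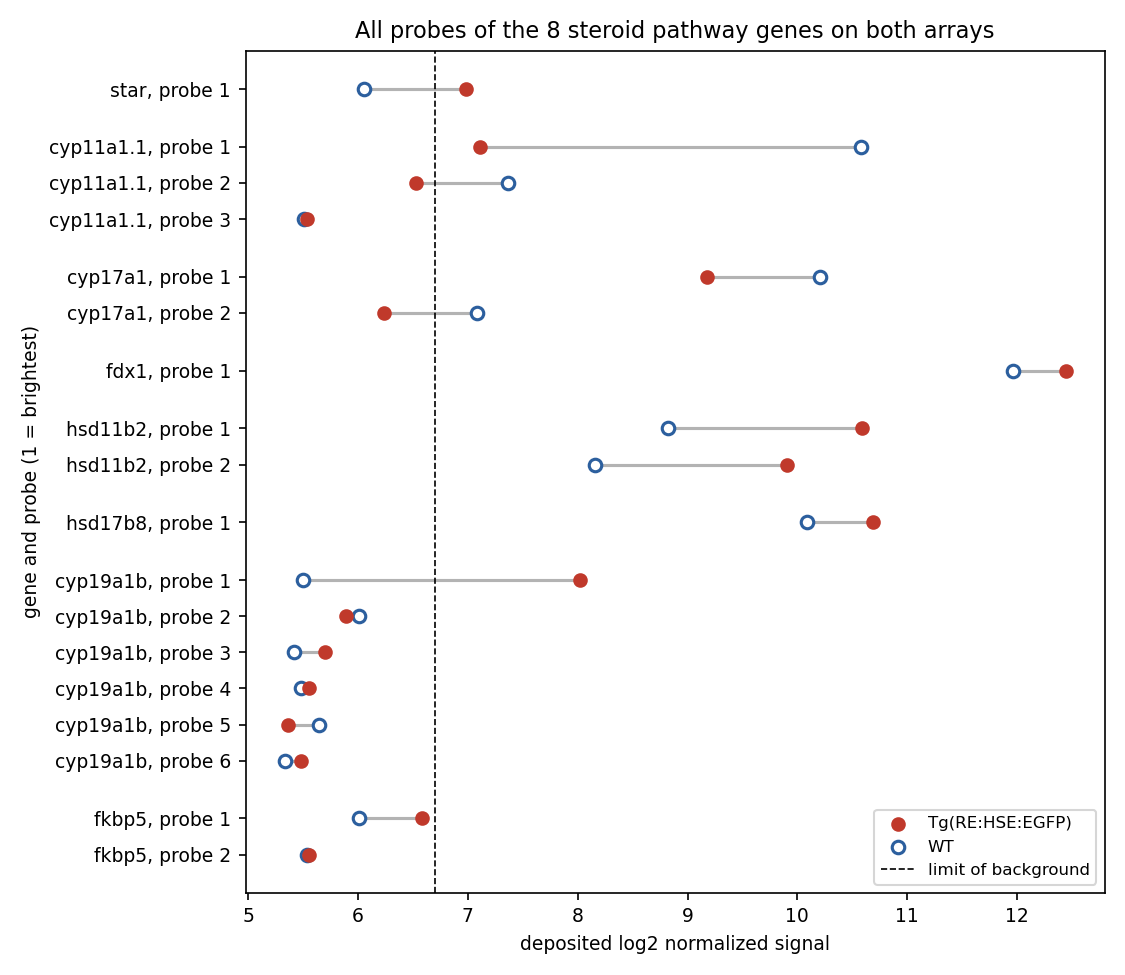
Deposited log2 signal (horizontal axis) of all 18 probes of the 8 genes (rows, brightest probe of each gene first) on the Tg(RE:HSE:EGFP) array (filled) and the WT array (open), with the limit of background as a dashed line. Both hsd11b2 probes shift right on the Tg array, 2 of 3 cyp11a1.1 probes and both cyp17a1 probes shift left, and 1 of 6 cyp19a1b probes leaves the background.

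At the entry of the pathway, star was read by 1 probe with a log2 signal of 6.99 on the Tg array and 6.05 on the WT array. The signal was above background on the Tg array only, which gives a bound of at least 1.21-fold higher there, short of the 2-fold limit. The measured difference was 0.93, and it cannot be read as a fold change because the WT signal lay within the background.

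The gene cyp11a1.1, whose enzyme commits cholesterol to steroid synthesis, showed the most extreme difference of the members, but on 1 bright probe. That probe was at 7.11 on the Tg array and 10.58 on the WT array, a difference of -3.47 or 11.1-fold. Of the 14577 genes above background on both arrays, 3 had a difference further below 0. The second probe was at 6.53 on the Tg array, under the limit, and at 7.37 on the WT array, a difference of -0.84. The third probe was within the background on both arrays, at 5.53 and 5.51. The bright and the silent probe lie close together in the files' coordinates, with starts 346 bases apart. The second starts 9360 bases before the nearer of them. Its coordinates span 1023 bases, against 60 for each of the others, and how much of that span it reads is not known. The size of the difference thus rests on 1 probe of 3, and its direction on 2. The neighbouring copy cyp11a1.2, which in zebrafish serves interrenal steroid synthesis after the earliest stages, was not above background on either array, at 6.27 and 5.73.

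The cyp17a1 gene, whose hydroxylase and lyase leads from progestogens to cortisol and androgens, was lower on the Tg array by both of its probes. The brighter probe was at 9.18 on the Tg array and 10.21 on the WT array, a difference of -1.03 (2.04-fold), just past the limit. The dimmer probe, placed 801 bases away, was at 6.23, within the background, on the Tg array and 7.08 on the WT array, a difference of -0.85. Both probes thus gave the same direction, with the dimmer one measured on the WT array alone. Of the genes measured on both arrays, 457 had a lower difference than cyp17a1. The paralog cyp17a2, which has hydroxylase but no lyase activity, was within the background at 5.55 and 5.51.

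The ferredoxin gene fdx1 was read by 1 bright probe, at 12.44 on the Tg array and 11.97 on the WT array. The difference of 0.48 (1.39-fold) did not reach 2-fold, and 2334 genes had a higher one. It was smaller than 0.76, the 95th percentile of the gap between the differences of paired probes. The other ferredoxin genes were higher on the Tg array by more. The gene fdx1b, whose product serves cortisol synthesis in zebrafish larvae, was at 8.77 on the Tg array and 7.25 on the WT array, a difference of 1.52 (2.87-fold). The gene fdx2, whose product works in iron-sulfur cluster assembly, was at 9.89 on the Tg array and 8.83 on the WT array, a difference of 1.05 (2.07-fold). All of the 3 ferredoxin genes rest on 1 probe each. The electron carriers of the microsomal enzymes, encoded by pora and cyb5a, differed by -0.06 and -0.02.

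The hsd11b2 gene, which protects tissues from cortisol by turning it into cortisone, was higher on the Tg array by both of its probes. The brighter probe was at 10.59 on the Tg array and 8.82 on the WT array, a difference of 1.77 (3.41-fold). The dimmer one was at 9.90 on the Tg array and 8.15 on the WT array, a difference of 1.75 (3.36-fold). These signals were well above the limit on either array, which makes hsd11b2 the only member past 2-fold that was measured on both arrays by every probe. The probes share 54 of their 60 positions in the files' coordinates and therefore read almost the same stretch of the transcript. Among the genes measured on both arrays, 120 had a higher difference. In whole embryos, more cells with hsd11b2 RNA and more hsd11b2 RNA per cell cannot be told apart, and the same holds for every gene here.

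**Figure D2:**
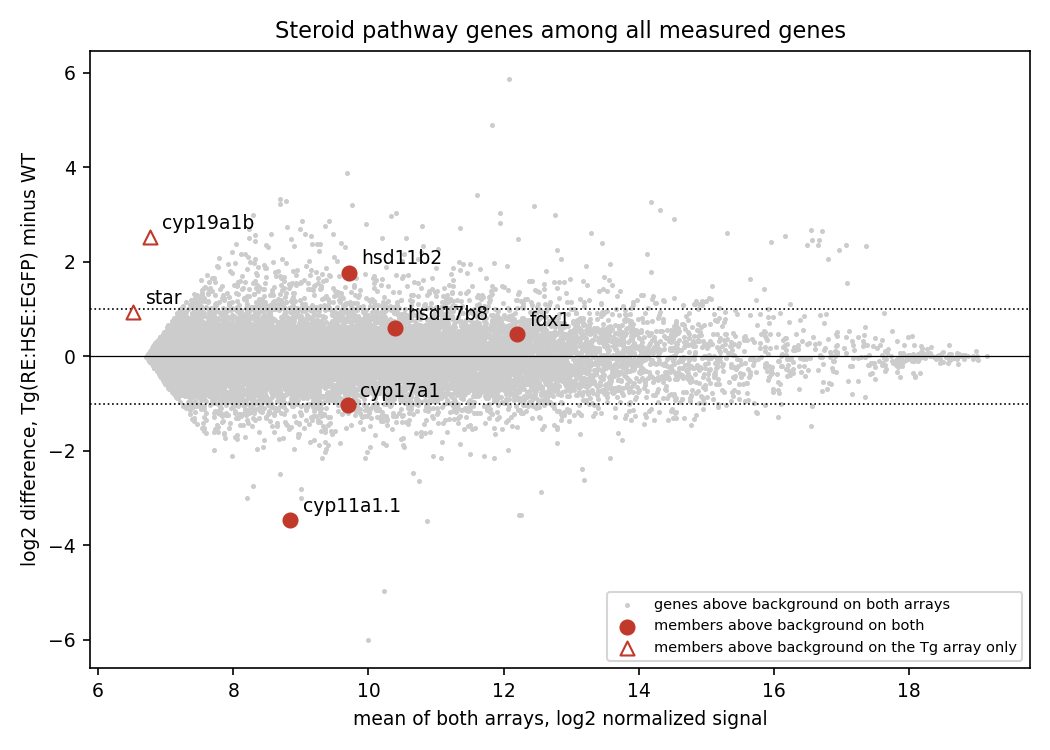
Log2 difference, Tg(RE:HSE:EGFP) minus WT (vertical axis), against the mean log2 signal of both arrays (horizontal axis) for the 14577 genes above background on both arrays (grey) and for the members (red, triangles for star and cyp19a1b, which were above background on the Tg array only). Dotted lines mark 2-fold. The gene hsd11b2 stands at 1.77 and cyp11a1.1 at -3.47, at the edges of the cloud, while hsd17b8 and fdx1 lie inside it.

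The hsd17b8 gene encodes a dehydrogenase that can inactivate estradiol and that also forms part of the ketoacyl reductase of mitochondrial fatty acid synthesis, together with Cbr4. Its single probe was at 10.69 on the Tg array and 10.09 on the WT array. The difference of 0.60 (1.51-fold) was under 2-fold, and 1697 genes had a higher one. It was also under 0.76, the 95th percentile of the gap between the differences of paired probes. The partner gene cbr4 was at 9.07 on the Tg array and 7.52 on the WT array, a difference of 1.55 (2.93-fold) by 1 probe. Of the 8 genes listed for mitochondrial fatty acid and lipoic acid synthesis, 7 were above background. Of these, 6 had a difference above 0, against 47.9% of all genes above background. The exception was mecr, the enoyl reductase, at -0.37, whose other probe stood at 0.40. The median of these genes was 0.40 against -0.03 for all genes, with the acyl carrier protein genes ndufab1a and ndufab1b at 0.60 and 0.37, the malonyl transferase gene mcat at 0.35 and the lipoyl synthesis genes lias and lipt2 at 0.40 and 0.47.

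Brain aromatase, encoded by cyp19a1b, makes estrogens in radial glia of the fish brain, and its gene responds to estrogen. Of its 6 probes, 1 was above background, on the Tg array alone. This probe was at 8.02 on the Tg array and 5.50 on the WT array, so cyp19a1b was at least 2.48-fold higher on the Tg array by that probe. The other 5 probes ranged from 5.36 to 5.89 on the Tg array and from 5.33 to 6.01 on the WT array, with differences between -0.28 and 0.28. The bright probe is the last of the 6 along the chromosome, 365 bases beyond the start of the nearest silent one. Of 122 named genes with at least 6 probes, 9 had 1 probe alone above background. The ovarian aromatase gene cyp19a1a was within the background by both of its probes, at 6.08 on the Tg array and 5.89 on the WT array for the brighter.

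**Figure D3:**
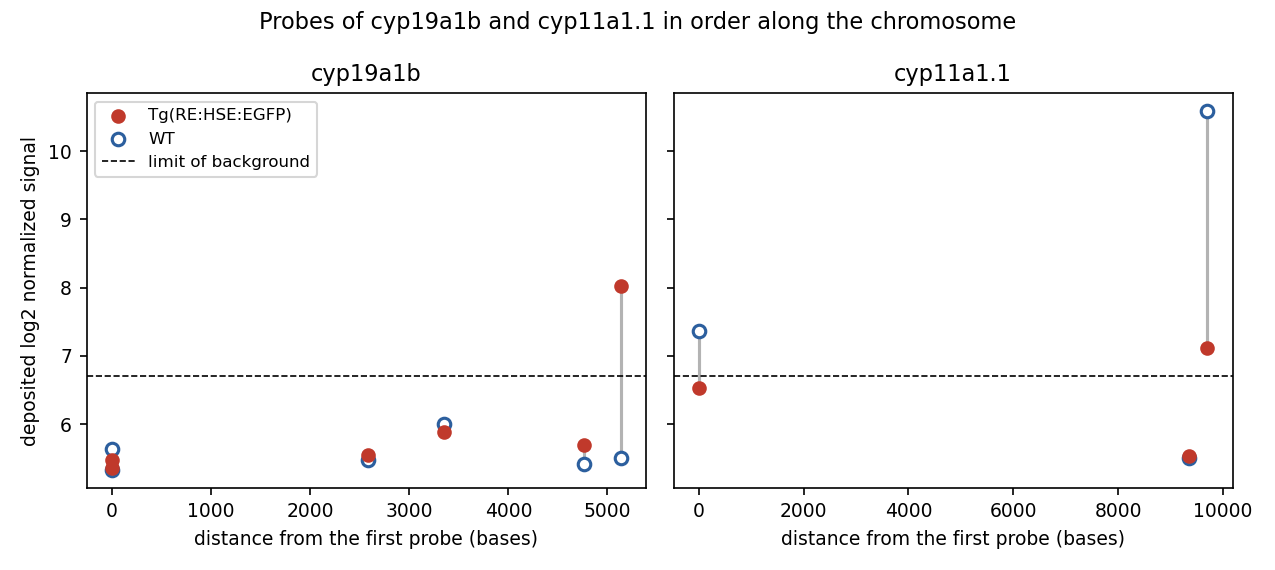
Deposited log2 signal (vertical axis) of the probes of cyp19a1b and cyp11a1.1 against the distance in bases from the first probe of the gene (horizontal axis), for the Tg(RE:HSE:EGFP) array (filled) and the WT array (open). The last probe of each gene carries the largest difference, at 8.02 against 5.50 for cyp19a1b and at 7.11 against 10.58 for cyp11a1.1. The probe before it is silent on both arrays. The first cyp11a1.1 probe was at 6.53, within the background, on the Tg(RE:HSE:EGFP) array and at 7.37 on the WT array.

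The co-chaperone gene fkbp5, a glucocorticoid target in fish and mammals, was not above background on either array. Its brighter probe was at 6.58 on the Tg array and 6.01 on the WT array, and its dimmer one at 5.55 and 5.53. No change can be given for it, and a signal within the background does not show that the transcript was absent.

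The members were then set among the genes around them, in 10 lists written from textbook knowledge. In the list of steroid synthesis, 12 of the 16 genes with a probe were above background, with a median of 0.27. The median was 0.10 over genes above background on both arrays, which leaves out star and cyp11c1. In the list, 2 genes were at least 2-fold higher and 2 lower on the Tg array. The higher ones were fdx1b and fdx2 and the lower ones cyp11a1.1 and cyp17a1, so the list did not share a direction. Of the genes outside the 8, the next differences in size were those of cyp11c1, the hydroxylase that completes cortisol (0.58, above background on the Tg array only, with 2 dimmer probes at -0.30 and 0.41), hsd3b7 of bile acid synthesis (0.34) and stard3, a cholesterol carrier of endosomes (-0.25, with its other probe at 0.42). The isomerase genes hsd3b1 and hsd3b2 were within the background, and no probe was matched to cyp21a2 or fdxr.

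Among regulators of the interrenal gland, 6 of 9 genes with a probe were above background and none passed 2-fold. By their brightest probes the steroidogenic factor genes nr5a1a and nr5a1b had nearly the same signal on both arrays. These were 11.35 on the Tg array and 11.34 on the WT array for nr5a1a, and 14.14 and 14.15 for nr5a1b. A second nr5a1a probe was at 8.45 on the Tg array and within the background, at 6.37, on the WT array. The second nr5a1b probe was at 7.48 on the Tg array and 6.99 on the WT array, a difference of 0.49. The ACTH receptor gene mc2r was within the background. Upstream in the brain and pituitary, 4 of 8 genes were above background and crhbp, whose product binds corticotropin-releasing hormone, was counted as higher, at 8.73 on the Tg array and 6.84 on the WT array, a difference of 1.89, with a second probe at 0.95. The ACTH precursor gene pomca was at 7.12 on the Tg array and within the background, at 6.25, on the WT array, a bound of at least 1.33-fold. The hormone gene crhb was within the background on both, and the receptor gene crhr2 differed by -0.16.

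For the handling of cortisol once made, 6 of 7 genes were above background, and hsd11b2 alone passed 2-fold. The gene hsd20b2, whose product in zebrafish carries cortisone on to an excreted form, went the other way, at 8.69 on the Tg array and 9.21 on the WT array, a difference of -0.53. The reductase gene srd5a3 differed by 0.50, srd5a2a by 0.55 with the WT signal within the background, and hsd11b1la by 0.18. The list's median was 0.34, and 0.18 over the genes above background on both arrays.

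In the metabolism of estrogens and androgens, 15 of 19 genes were above background. Of these cyp19a1b alone was counted, where 8.24% of all genes above background were. A difference above 0 was seen for 11 of the 15, against 47.9% of all genes above background. The list's median was 0.21 against -0.03 for all genes. The dehydrogenase genes hsd17b7 (0.53), hsd17b10 (0.45) and hsd17b4 (0.31) shared the sign of hsd17b8. The genes hsd17b14 (-0.59) and hsd17b12a (-0.31) did not, while hsd17b12b, its near relative in fatty acid elongation, had 3 probes at 0.50, 0.71 and 1.05. The glucuronosyltransferase gene ugt2b1 was at 0.68. Estrogen targets of fish livers, the vitellogenin genes, were dim. Of the 10 genes listed as estrogen targets, cyp19a1b among them, 7 were above background, 3 of these on the Tg array only. Thus vtg1 was at 7.42 on the Tg array and 6.25, within the background, on the WT array (at least 1.64-fold), and vtg6 at 7.51 and 6.34 (at least 1.75-fold), with 2 of 8 vtg1 probes and 2 of 12 vtg6 probes above background. The brightest vtg7 probe was at 8.43 on the Tg array and 7.86 on the WT array, and the estrogen receptor gene esr1 differed by 0.28. The listed genes vtg2 (-0.08) and nots (-0.13) were lower, which makes 5 of the 7 higher and 2 lower. The median of the list was 0.58, with the genes that passed through the Tg array alone included, and 0.10 over those above background on both arrays.

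Of the steroid receptors, 5 of 12 genes were above background and none differed by 2-fold. The glucocorticoid receptor gene nr3c1 was at 10.38 on the Tg array and 10.85 on the WT array by its brightest probe, a difference of -0.47, and all 5 of its probes above background were lower on the Tg array. The androgen receptor gene ar differed by -0.26 and the progesterone receptor membrane component gene pgrmc2 by -0.37. The other genes above background were higher. These were esr1, at 0.28 by its 1 probe above background, and pgrmc1, at 0.12 by its brightest probe and higher by all 4 of its probes. The mineralocorticoid receptor gene nr3c2 was within the background.

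Around the receptor sit chaperones and co-chaperones that act on it in different ways, not all of them toward hormone binding. Of 13 such genes 12 were above background, fkbp5 being the exception, and 7 were lower and 5 higher, with a median of -0.10. The stress-inducible chaperone gene hsp90aa1.1 was at 12.28 on the Tg array and 13.66 on the WT array, a difference of -1.37 (2.59-fold), and its dimmer probes stood at -1.22 and -1.02. The immunophilin gene ppid differed by -0.81 and fkbp4, which opposes Fkbp5 on the receptor, by -0.52, each lower by all of its probes. All 6 probes of hsp90ab1 were lower as well, with differences between -0.72 and -0.12, and so were all 7 of hspa8, between -0.64 and -0.09. The genes hspa4a (0.77) and stub1 (0.50) were higher. Hsp90aa1.1 is also a muscle and heat shock gene, and both arrays come from heat-shocked embryos. Whether the heat response was alike in the 2 groups was not tested.

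Targets of glucocorticoids did not share a direction. Of 23 listed genes 20 were above background, with 2 at least 2-fold higher, 2 lower and a median of -0.12. The higher ones were pck1, the gluconeogenic enzyme gene, at 10.94 on the Tg array and 9.44 on the WT array (2.83-fold, with its other probe at 1.45), and socs3a, a feedback inhibitor of cytokine signaling, at 9.86 and 8.02 (3.56-fold). The lower ones were zbtb16a, a transcription factor gene raised by glucocorticoids in mammals, and ddit4, an inhibitor of TORC1 that also answers to hypoxia and other stresses. The gene zbtb16a was at 11.97 on the Tg array and 14.35 on the WT array, a difference of -2.38 (5.21-fold), and its other probes stood at -2.06 and -1.97. The gene ddit4 was at 9.53 on the Tg array and 10.90 on the WT array, a difference of -1.37. Under 2-fold, tat of tyrosine breakdown (0.90) and the clock gene per1a (0.89) were higher, while the phosphatase gene dusp1 (-0.64) and the paralog zbtb16b (-0.83, within the background on the Tg array) were lower. The genes klf9 and errfi1a were within the background like fkbp5.

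**Figure D4:**
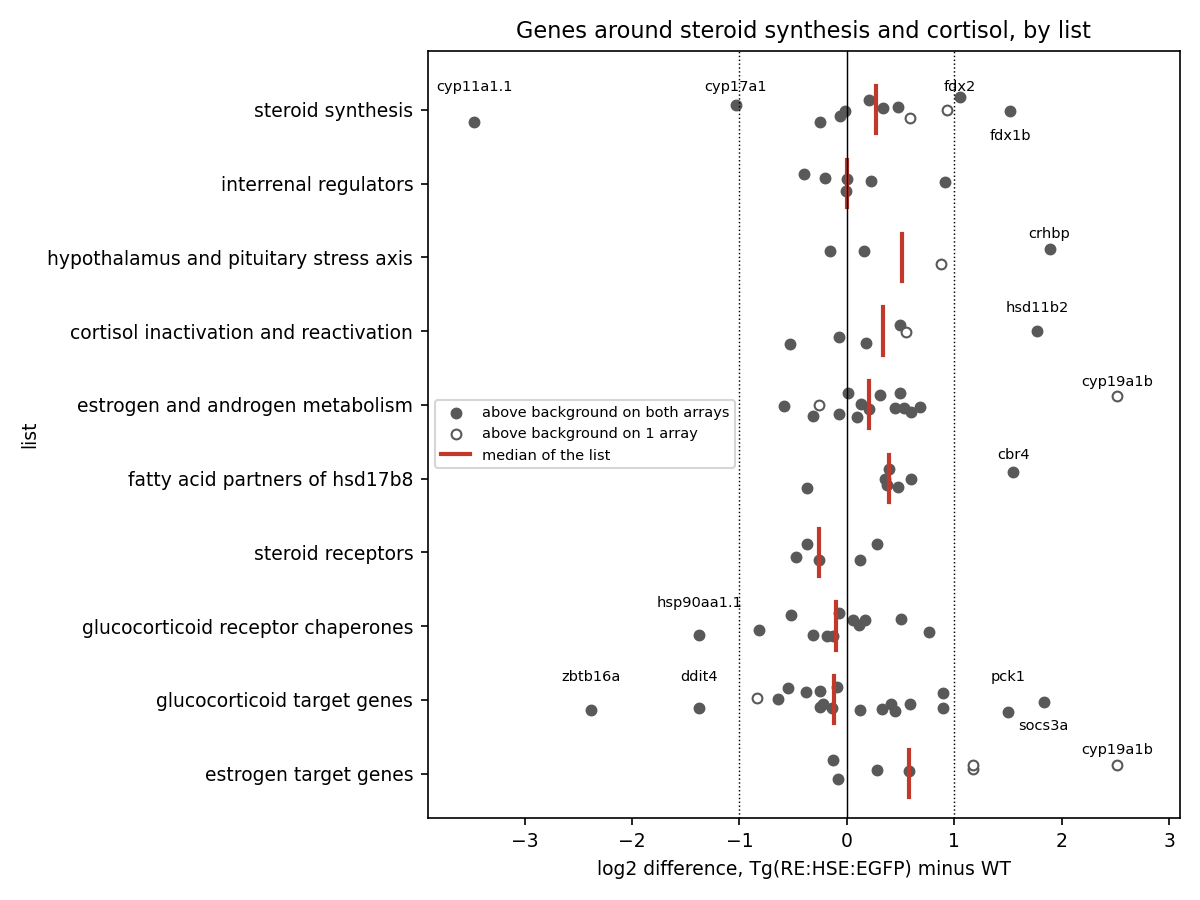
Log2 difference, Tg(RE:HSE:EGFP) minus WT (horizontal axis), of each gene above background in 10 lists (rows), filled where the gene was above background on both arrays and open where on 1 array, with the median of each list in red. Dotted lines mark 2-fold and the genes counted past it are named. Most genes lie within the dotted lines, and the list medians run from -0.26 for steroid receptors to 0.58 for estrogen targets, which is 0.10 without the genes above background on the Tg(RE:HSE:EGFP) array only.

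Cell types that could carry these transcripts were read from marker genes. Over all genes above background, 47.9% had a difference above 0. Of 7 ionocyte markers above background 6 were lower on the Tg array. Among these, foxi3b was above background on the WT array only, and the higher marker, atp1a1a.5, on the Tg array only. The probes of ca2, the brightest of the lower markers, did not share a direction, with 2 lower (-0.30 and -0.51) and 2 higher (0.02 and 0.57). The log2 of the list's summed signal was 14.26 on the Tg array and 14.74 on the WT array. For pronephros markers it was 11.90 on the Tg array and 12.27 on the WT array, although 4 of 6 were higher, with pax2a at -1.02 and the tubule gene cdh17 at -0.50. The median of the pronephros markers was 0.10, of the other sign than the sum. For radial glia, which carry cyp19a1b, the summed signal was 17.21 on the Tg array and 16.55 on the WT array. Here 4 of 8 markers were higher. The brightest of them, fabp7a, was at 16.57 on the Tg array and 15.13 on the WT array, a difference of 1.43. The rise of the sum rests on fabp7a, and without it the sum was not higher on the Tg array. The other 4 markers were lower, with vim at -0.73, gfap at -0.37, glula at -0.25 and gja1b at -0.05. A dimmer probe of gfap (0.33), of glula (0.20) and of vim (0.09), each above background on both arrays, was higher. The remaining probes of these genes and of gja1b were lower. The median of the list was 0.16. Neuron markers summed to 12.95 on the Tg array and 12.46 on the WT array, with 5 of 6 higher, sypa above background on the Tg array only. The exception, elavl4, had the largest difference, at -0.82, with its other probes at -0.27 and 0.58. Markers of chromaffin cells, which mix with the interrenal gland, summed to 11.80 on the Tg array and 10.99 on the WT array, but the defining gene dbh was within the background, th and chga stood at 0.05 and 0.04, and phox2bb (1.02) and phox2a (0.78) differed most. Of the 8 germ cell and gonad markers 3 were above background, namely foxl2a (1.45), nanos3 (0.45) and piwil1 (-0.62). The probes of piwil1 did not share a direction. Another was at 7.35 on the Tg array and 5.88, within the background, on the WT array. A further probe, above background on the WT array only, stood at -0.56. The genes ddx4, dazl, amh, gsdf and dmrt1 were within the background on both arrays. By their medians, muscle (0.73, 7 of 7 higher), lens (0.56, 5 of 5 higher) and liver (0.63, 5 of 7 higher) markers were brighter on the Tg array. Erythrocyte markers were dimmer (median -0.25, 7 of 8 lower). The globin genes hbbe1.1, hbae1.1 and hbbe3 differed by only -0.001, -0.05 and -0.06. These 3 read near the highest signal of either array, 19.16, where saturation was not checked, so their small differences are hard to read. The dimmer globin gene hbbe2 stood at -0.43 and -0.26 by its probes, and hbae3, the higher marker, at 0.02. Summed signals on the Tg and WT arrays were 19.33 and 18.77 for muscle and 14.71 and 14.15 for lens. They hardly differed for liver, at 18.69 and 18.56, and for erythrocytes, at 20.80 and 20.84. The erythrocyte sum is made up mostly of the brightest globin signals. The part of these cell types in the values of the members was not tested.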

How the data were processed

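The authors labelled total RNA with Cy3, hybridized it to 1-colour Agilent zebrafish oligo arrays and read the scans with Feature Extraction. The deposited values are log2 signals that the authors had normalized, by a method not given in the sources used here, for 43553 probes on each of 2 arrays, equal to those of the series table. No flags for background or saturation, control spots or probe sequences were used. Signals were centred on the 75th percentile of their array, a shift of -0.001 in each difference. Probes were named by RefSeq accession (26960), current symbol (2481) or older symbol (1602) in the GRCz12tu gene table, used for names and gene order alone. The file's name was kept for 4397, and 8113 stayed unnamed. Distances between probes come from the files' coordinates, whose build is not named. A gene was read from its brightest probe by mean signal. Above background on 1 array only, it got a bound, for which the other array's signal was raised to the lowest one above background there if it lay below it. The members, the lists and the background limit were chosen with earlier results of these data known. Named are all members, pathway list genes past 2-fold and up to 4 others of such a list with large differences, besides paralogs and partners. All steroid receptor and estrogen target genes above background were named as well. Marker genes and the genes used to check the labels were named after their values were seen. Alternatives were other scalings, the table of the series, the mean over probes, each probe alone, other background filters and folds of 1.5 and 4, and, added after seeing the data, the median over probes and agreement of all probes above background. The steps were tested on simulated data. Python 3.11.15, numpy 2.4.6, pandas 2.3.3 and matplotlib 3.10.9 were used.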

Additional observations from a re-analysis of the deposited data

How the results depend on the processing

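No paired analysis was possible because each group has 1 array. No scaling, median centring, quantile normalization and the table of the series left the counts of members at 2 higher and 2 lower. That outcome was all but fixed, because the deposited signals of the 2 arrays have nearly the same distribution. At 99.99% of ranks they differ by at most 0.05, and the table of the series holds the same values. With the mean over probes 1 member was higher and 1 lower, and with the median over probes, added after seeing the data, 1 and 0. Asking for signal above background on both arrays left 1 higher, and so did a limit at the 99th percentile of receptor signals. At 4-fold 0 were higher and 1 lower. Asking all probes above background to pass 2-fold, also added later, left 0 lower. Over all genes, 476 were higher with the 99th percentile, 2012 higher and 2039 lower at 1.5-fold, and 111 and 38 at 4-fold. By single probes the sign turned for cyp11a1.1 (0.023) and cyp19a1b (-0.12 and -0.28), all of them probes within the background. The difference of cyp11a1.1 was -1.43 and that of cyp19a1b 0.44 with the mean over probes. Of 90 list medians under the alternatives 13 moved by more than the 0.18 that separates paired probes in the median. That of estrogen targets (0.58) was 0.10 over genes above background on both arrays, 0.11 with the mean over probes and 1.55 with the 99th percentile, that of the hypothalamus and pituitary (0.52) ran between 0.16 and 0.87, that of interrenal regulators was 0.28 with the mean and 0.49 with the median over probes, and that of steroid receptors (-0.26) was -0.06 with no filter. Precision is limited by having 2 arrays.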

Other observations

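The forkhead gene foxl2a, which in the gonad stands upstream of aromatase and is also used in the pituitary and the face, was higher on the Tg array by all 3 of its probes, at 9.47, 8.15 and 7.98 against 8.02, 6.90 and 6.77 on the WT array. The ovarian aromatase gene cyp19a1a was within the background on both arrays, and so were the other gonad genes amh, gsdf and dmrt1.

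Probes of 1 gene differed widely in some cases. The second nr5a1a probe differed by 2.07 while the brightest stood at 0.00, and 1 of 6 cyp19a1b probes differed by 2.52 as measured. Sequences of these probes were not used here, so which transcript each one reads is not known.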
